A study of Homo sapiens with 12 samples.

Results

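Fatty acid synthesis and desaturation was followed through 10 genes in ML-2 cells, an established line from human acute myeloid leukaemia. Every probe set annotated to exactly 1 of the symbols SCD, FASN, ACACA, ACLY, FADS1, FADS2, ELOVL5, ELOVL6, ACSL1 and ACSL3 was taken, whatever its values. That gave 22 probe sets for 8 of the 10 genes, out of 19775 genes with such a probe set in the whole series. FADS1 and ACSL3 had none under this rule and are not analysed here. All 8 measured genes passed the filter on low values, and each was above the array median on 12 of 12 arrays.

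The study asked how SGI-110 and ASTX660, alone and in sequence, changed expression in ML-2 cells. SGI-110 (guadecitabine) is a hypomethylating agent that releases decitabine, and ASTX660 blocks inhibitor of apoptosis proteins. The SGI-110+ASTX660 group received 2 µM SGI-110 for 24 h and then 5 µM ASTX660 for 9 h, the SGI-110 group 2 µM SGI-110 for a stated 33 h, the ASTX660 group 5 µM ASTX660 for 9 h after solvent, and the solvent group solvent throughout. Each of the 4 groups held 3 Affymetrix arrays from independent experiments, carrying the numbers 2, 9 and 13 in every group. The labels do not say whether SGI-110 stayed in the medium during the last 9 h of the combination. All groups are 1 cell line in RPMI medium with fetal calf serum, so they model no patient sample and no other genotype.

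Cells build fatty acids from citrate. ACLY splits citrate into acetyl-CoA, ACACA carboxylates that to malonyl-CoA in the committed step, and FASN joins the units into palmitate. ELOVL6 lengthens palmitate to stearate and SCD places the first double bond, giving oleate and palmitoleate, while FADS2, FADS1 and ELOVL5 process the polyunsaturated chains taken up from food or serum. ACSL1 and ACSL3 attach coenzyme A to free fatty acids so that they can enter lipids or be burned. Many of these genes are known targets of SREBP, the membrane-bound factor that sterols hold back through INSIG1, and SCD is also a known target of LXR.

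Promoter windows of some of the members whose levels the results turn on are given here from RefSeq (GRCh38.p14). Each has 300 bases around a gene start and is read along the gene's strand. Capitals mark the letters CCAAT, the core bound by NF-Y, GGGCGG, the core bound by Sp1, CACGTG, an E-box, and TCACNCCAC, a published form of the SREBP element, on either strand. SCD lies at chr10:100346983-100347282, ACLY at chr17:41918902-41919201 and ELOVL5 at chr6:53348901-53349200, and these 3 are shown because their genes were lower with SGI-110. ELOVL6 at chr4:110198566-110198865 and ACSL1 at chr4:184825919-184826218 are shown because they were higher, and FADS2 at chr11:61816154-61816453 because it stood out with ASTX660. A second ACSL1 start, at chr4:184805504-184805803, is shown for its TCACNCCAC match. SCD and FADS2 lie on the plus strand and the others on the minus strand. ACACA and FASN were also lower with SGI-110, but the ACACA windows are not printed and FASN had no window.
SCD: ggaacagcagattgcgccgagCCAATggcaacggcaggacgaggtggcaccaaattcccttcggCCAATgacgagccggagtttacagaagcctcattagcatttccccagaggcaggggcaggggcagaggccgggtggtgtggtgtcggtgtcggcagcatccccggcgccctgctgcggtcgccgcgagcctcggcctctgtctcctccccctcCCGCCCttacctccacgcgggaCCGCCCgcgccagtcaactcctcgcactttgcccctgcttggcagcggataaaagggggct
ACLY: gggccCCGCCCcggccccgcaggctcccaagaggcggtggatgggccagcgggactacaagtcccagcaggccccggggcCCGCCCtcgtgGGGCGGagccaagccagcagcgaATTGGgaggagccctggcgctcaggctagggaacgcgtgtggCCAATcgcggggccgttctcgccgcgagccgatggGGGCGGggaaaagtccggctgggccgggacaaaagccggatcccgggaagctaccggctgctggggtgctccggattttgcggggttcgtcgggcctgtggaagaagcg
ELOVL5: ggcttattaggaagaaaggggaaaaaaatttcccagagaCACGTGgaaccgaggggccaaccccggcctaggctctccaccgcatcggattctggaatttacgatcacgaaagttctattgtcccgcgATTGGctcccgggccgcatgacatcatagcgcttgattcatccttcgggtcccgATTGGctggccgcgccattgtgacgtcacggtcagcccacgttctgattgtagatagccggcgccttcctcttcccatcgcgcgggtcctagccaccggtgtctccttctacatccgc
ELOVL6: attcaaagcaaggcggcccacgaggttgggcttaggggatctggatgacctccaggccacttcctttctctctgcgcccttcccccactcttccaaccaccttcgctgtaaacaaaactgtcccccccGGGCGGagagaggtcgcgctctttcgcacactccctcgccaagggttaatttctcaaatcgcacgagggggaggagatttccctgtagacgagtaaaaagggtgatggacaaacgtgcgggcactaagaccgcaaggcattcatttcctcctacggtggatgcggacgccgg
ACSL1: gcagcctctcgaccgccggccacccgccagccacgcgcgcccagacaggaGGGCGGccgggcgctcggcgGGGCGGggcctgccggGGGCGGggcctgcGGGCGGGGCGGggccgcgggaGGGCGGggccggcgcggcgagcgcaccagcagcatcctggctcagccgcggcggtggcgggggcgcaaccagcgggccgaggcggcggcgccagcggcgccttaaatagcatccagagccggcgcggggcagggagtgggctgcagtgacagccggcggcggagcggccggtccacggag
FADS2: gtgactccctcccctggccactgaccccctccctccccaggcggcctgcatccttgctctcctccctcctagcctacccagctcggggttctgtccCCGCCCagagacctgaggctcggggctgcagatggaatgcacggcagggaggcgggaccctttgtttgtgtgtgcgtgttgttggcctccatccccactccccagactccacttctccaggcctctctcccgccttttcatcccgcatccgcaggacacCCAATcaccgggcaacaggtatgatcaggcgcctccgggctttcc
ACSL1 second start: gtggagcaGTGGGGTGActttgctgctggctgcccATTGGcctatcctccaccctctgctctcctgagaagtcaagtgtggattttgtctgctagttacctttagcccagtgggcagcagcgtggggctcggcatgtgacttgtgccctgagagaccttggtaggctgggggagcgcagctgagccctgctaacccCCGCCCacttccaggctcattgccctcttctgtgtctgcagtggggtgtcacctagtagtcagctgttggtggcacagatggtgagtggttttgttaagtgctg

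The table of promoters held 17 windows for 9 of the 10 genes, several genes having more than 1 start. CCAAT was in 9 of the 17 windows, against 34.6% of 35116 windows of the same length, and GGGCGG in 11, against 45.0%. The ACLY windows overlap and hold the same CCAAT and GGGCGG matches, which are thus counted in both. TCACNCCAC was in 1 of the 17, that of the second ACSL1 start, against 1.13% of all windows, and CACGTG in 1, that of ELOVL5, against 7.26%. The spaced LXR element DR4 was in 0 of the 17, against 0.0199%. Matches of different motifs did not overlap in these windows, while GGGCGG matches ran into each other at ACACA and ACSL1. Of the windows printed, that of SCD held 25 CpG dinucleotides, ACLY 31, ELOVL5 26, ELOVL6 20, the first ACSL1 start 47, FADS2 13 and the second ACSL1 start 4, where the median of all windows was 14. These letters describe the windows and are no measurement of binding or of methylation in ML-2 cells.

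Values are RMA log2 intensities, so a difference of 1 is a doubling of the array signal, and levels are compared only within a probe set. Each gene was read from its brightest probe set, and 12689 genes were tested in 1 limma fit, with a gene called at a Benjamini-Hochberg adjusted p under 0.05. The SGI-110 average effect is the mean of the 6 arrays with SGI-110 minus the mean of the 6 without, and the ASTX660 average effect is built alike. Across all genes the first principal component, 51.2% of the variance, parted arrays with SGI-110 from those without. On the third component, 11.7%, ASTX660 array 2 stood at 16.95 and the remaining arrays between -9.28 and 4.11. Of 6 myeloid markers 5 were measured and all 5 were above the array median on 12 arrays, with MPO between 13.1 and 13.5. Of 17 measured markers of T, B, erythroid, epithelial, fibroblast and adipose cells, 9 were above the array median on 0 arrays, among them EPCAM, KRT19, CDH1, MS4A1, CD2, ADIPOQ and FABP4. Another 5, CD3E, CD79A, HBB, COL1A1 and PLIN1, were above it on all 12 arrays, and their part in the results was not tested. Bulk RNA cannot tell fewer cells from less RNA per cell.

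With SGI-110, the genes that make palmitate and desaturate it were lower, and the palmitate elongase and the acyl-CoA synthetase were higher. Averaged over both settings, SCD fell by 0.46, ACACA by 0.37, FASN by 0.32, ACLY by 0.21 and ELOVL5 by 0.14 on the log2 scale. ELOVL6 and ACSL1 each rose by 0.28. FADS2 differed by -0.12 (95% interval -0.30 to 0.06) and did not pass the test. So 5 of the 8 members were called lower and 2 higher, where 14.1% of all tested genes were called lower and 15.8% higher. The members' median was -0.18, and that of all tested genes -0.00464. The summed signal of 3 adipose markers lay between 6.07 and 6.19 in SGI-110+ASTX660 cells, 6.14 and 6.24 in SGI-110 cells, 6.13 and 6.14 in ASTX660 cells, and 6.26 and 6.35 in solvent cells, with ADIPOQ and FABP4 above the array median on 0 arrays. The part of this sum in the result was not tested.

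ACLY, which supplies the acetyl-CoA, read 11.40, 11.54 and 11.51 in SGI-110+ASTX660 cells, 11.44, 11.38 and 11.33 in SGI-110 cells, 11.76, 11.63 and 11.62 in ASTX660 cells, and 11.63, 11.59 and 11.63 in solvent cells, in the order of numbers 2, 9 and 13. All 6 arrays with SGI-110 lay below all 6 without it. The share of all genes parted in this way was not counted, here or for the genes below. The average effect was -0.21 (SE 0.0342, limma adjusted p = 0.000358). All 3 ACLY probe sets were called lower, by 0.18 to 0.21.

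ACACA, acetyl-CoA carboxylase, read 8.44, 8.54 and 8.61 in SGI-110+ASTX660 cells, 8.19, 8.39 and 8.50 in SGI-110 cells, 8.96, 8.73 and 8.83 in ASTX660 cells, and 8.65, 8.80 and 8.93 in solvent cells. Again every array with SGI-110 lay below every array without it. The average effect was -0.37 (SE 0.0661, limma adjusted p = 0.000758). The second ACACA probe set differed by 0.10 (95% interval -0.06 to 0.26), and with the median over both probe sets the gene's effect was -0.13 and no longer called (limma adjusted p = 0.144).

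FASN, fatty acid synthase, read 7.29, 7.50 and 7.56 in SGI-110+ASTX660 cells, 7.28, 7.26 and 7.51 in SGI-110 cells, 7.56, 7.89 and 7.81 in ASTX660 cells, and 7.63, 7.62 and 7.78 in solvent cells. The arrays with SGI-110 lay below those without it, with SGI-110+ASTX660 array 13 and ASTX660 array 2 the closest, both at 7.56. The average effect was -0.32 (SE 0.072, limma adjusted p = 0.00425). Its other probe set, above the array median on 9 of 12 arrays, differed by -0.03 (95% interval -0.19 to 0.13).

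SCD, the stearoyl-CoA desaturase, read 10.68, 10.90 and 10.80 in SGI-110+ASTX660 cells, 10.31, 10.54 and 10.46 in SGI-110 cells, 11.15, 11.18 and 11.15 in ASTX660 cells, and 10.81, 10.96 and 11.21 in solvent cells. SGI-110 cells were the lowest, each combination array was above each SGI-110 array, and the combination overlapped solvent through solvent array 2. The average effect of SGI-110 was -0.46, a 1.38-fold lower signal (SE 0.062, limma adjusted p = 8.41e-05). All 4 SCD probe sets were called lower, by 0.46 to 0.51. SCD averaged 10.79 ± 0.112 in the combination, 10.44 ± 0.117 in SGI-110 cells, 11.16 ± 0.018 in ASTX660 cells and 10.99 ± 0.204 in solvent cells (SD, n = 3 each). From low to high the order was SGI-110, the combination, solvent and ASTX660, and of these neighbours the combination and SGI-110 did not overlap.

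ELOVL6, the palmitate elongase, moved the other way. It read 8.51, 8.72 and 8.84 in SGI-110+ASTX660 cells, 8.50, 8.48 and 8.72 in SGI-110 cells, 8.61, 8.24 and 8.53 in ASTX660 cells, and 8.17, 8.04 and 8.48 in solvent cells. The combination lay above solvent on every array, while SGI-110 and solvent met at solvent array 13. The average effect was 0.28 (SE 0.0879, limma adjusted p = 0.0247), and 2 of its 3 probe sets were called higher. With 1 array left out in turn the call held in 7 of 12 fits (highest limma adjusted p = 0.0668), failing without combination array 13, SGI-110 array 13, ASTX660 array 9, or solvent array 2 or 9.

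ACSL1, the long-chain acyl-CoA synthetase, read 8.18, 8.09 and 8.08 in SGI-110+ASTX660 cells, 8.15, 7.94 and 7.93 in SGI-110 cells, 8.07, 7.70 and 7.80 in ASTX660 cells, and 7.79, 7.64 and 7.69 in solvent cells. Both groups with SGI-110 lay above solvent on every array, and ASTX660 array 2 reached into the SGI-110 range. The average effect was 0.28, a 1.22-fold higher signal (SE 0.0659, limma adjusted p = 0.00505). Both ACSL1 probe sets were called higher.

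ELOVL5, which lengthens polyunsaturated chains, read 11.42, 11.34 and 11.38 in SGI-110+ASTX660 cells, 11.33, 11.29 and 11.21 in SGI-110 cells, 11.54, 11.44 and 11.48 in ASTX660 cells, and 11.51, 11.41 and 11.45 in solvent cells. SGI-110 cells lay below solvent throughout, and the combination overlapped solvent. The average effect was -0.14 (SE 0.0313, limma adjusted p = 0.00333). Only 1 of its 4 probe sets was called, and with the median over them the effect was -0.13 and not called (limma adjusted p = 0.0924).

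FADS2, the desaturase that opens polyunsaturated synthesis, read 8.11, 7.98 and 8.27 in SGI-110+ASTX660 cells, 7.70, 7.66 and 8.00 in SGI-110 cells, 8.04, 8.15 and 8.42 in ASTX660 cells, and 7.82, 7.87 and 8.13 in solvent cells. The arrays numbered 13 were the highest in every group, and the groups overlapped in every comparison tested. Between the single agents, which were not compared by a test, every SGI-110 array lay below every ASTX660 array.

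**Figure D1:**
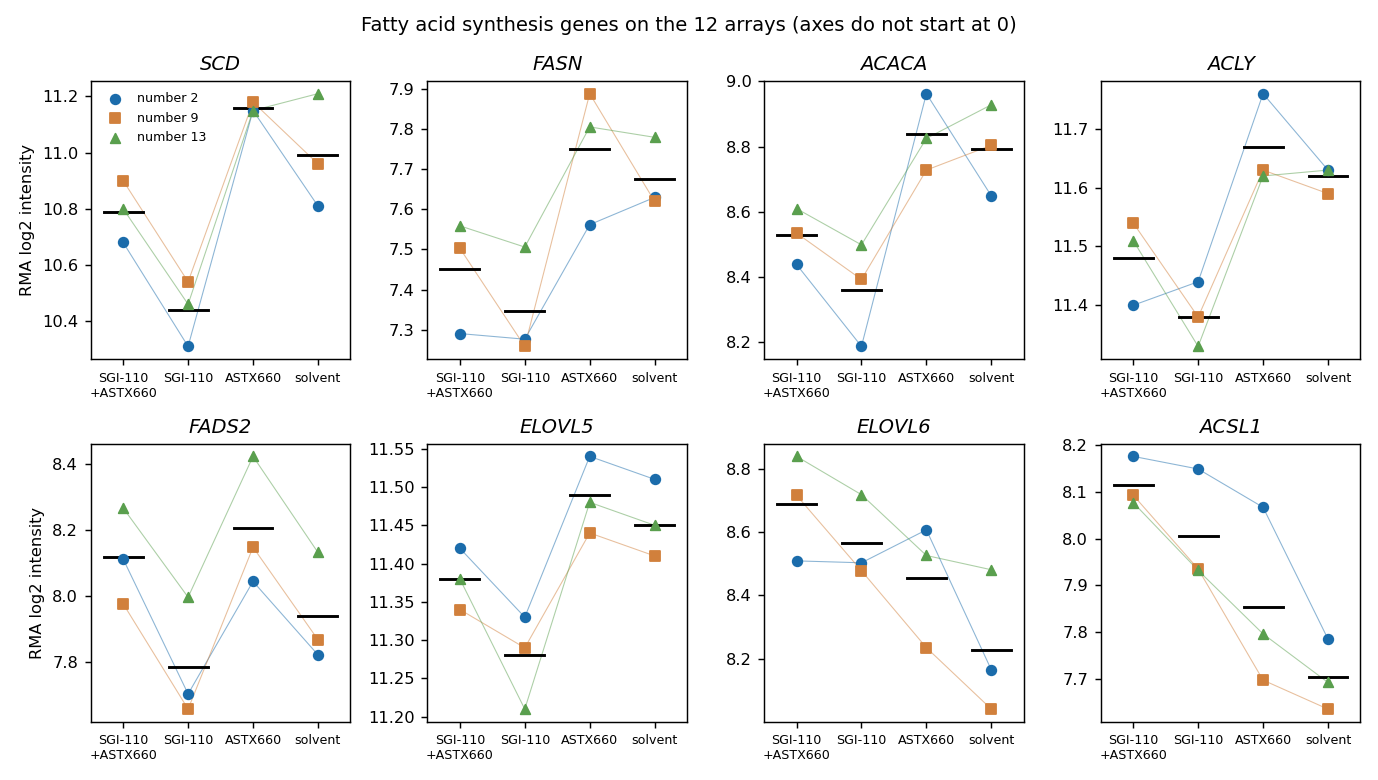
RMA log2 intensity of the 8 measured genes (vertical axes, which do not start at 0) in SGI-110+ASTX660, SGI-110, ASTX660 and solvent cells, 3 arrays each. Points are arrays, thin lines join arrays of the same number and black bars are group means; SCD, ACACA, FASN and ACLY are low in the first 2 groups and ELOVL6 and ACSL1 are high there.

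**Figure D2:**
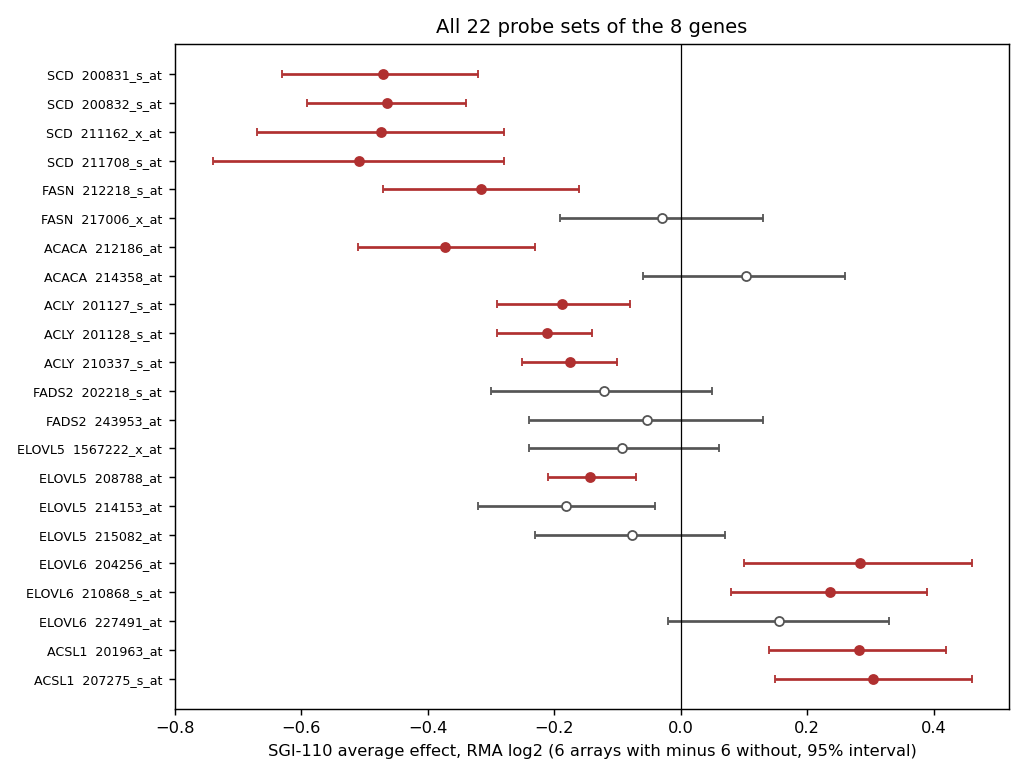
SGI-110 average effect (horizontal axis, log2 difference of 6 arrays with minus 6 without, with 95% intervals) for each of the 22 probe sets. Filled red points passed the adjusted p over all probe sets, 10 lower and 4 higher, and the second ACACA probe set lies on the other side of 0 from the first.

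Each setting of SGI-110 was also tested alone. Against solvent, SGI-110 alone gave SCD -0.56, ACACA -0.43, FASN -0.33, ACLY -0.24 and ELOVL5 -0.18, all called lower, and ACSL1 0.30, called higher (limma adjusted p between 0.000834 and 0.0423). That is 5 members lower, against 5.9% of all genes, and 1 higher, against 9.5%. The 3 SGI-110 arrays lay wholly below solvent for these same 5 genes (16.6% of all genes) and wholly above for ACSL1 (19.5%). ELOVL6, at 0.34, was not called (limma adjusted p = 0.086) but was with the title number fitted as a block, which removes the level shared by same-numbered arrays (limma adjusted p = 0.00603). Of these calls SCD and ACLY held in 20 of 20 alternative settings, ACACA in 19, ELOVL5 in 16, FASN in 12 and ACSL1 in 9. With 1 array left out in turn, FASN was called in 7 of 12 fits (highest limma adjusted p = 0.148), failing without SGI-110 array 2 or 9 or any solvent array. ACSL1 was called in 4 of 12 (highest limma adjusted p = 0.174), failing without any SGI-110 or solvent array or without combination array 9 or 13. ELOVL5 was called in 10 of 12 (highest limma adjusted p = 0.0709), failing without SGI-110 array 13 or solvent array 2. Without solvent array 2, 3 members were called.

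On top of ASTX660, that is in the combination against ASTX660, SCD differed by -0.37, ACACA by -0.31 and ACLY by -0.19, and these 3 were called lower, against 7.69% of all genes. Members called higher in limma numbered 0, against 8.37%. At an unadjusted p under 0.05, 1 member was higher, ACSL1, and 5 were lower. Of the 12689 genes, 1833 were higher and 1922 lower at that cut. The combination arrays lay below all ASTX660 arrays for 5 members (15.2% of genes) and above for ACSL1 alone (14.1%). Without combination array 2, 0 members were called. ACACA was called in 7 of 12 fits with 1 array left out (highest limma adjusted p = 0.133), failing without any combination array or without ASTX660 array 2 or 13, and ACLY also failed without ASTX660 array 2.

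Against solvent, limma without the block called 2 members in the combination and 6 with SGI-110 alone, and with the block 7 in each. The difference between these counts was not tested. With the block, 14.9% of all genes were called higher and 10.4% lower with SGI-110 alone. ELOVL6 was higher by 0.46 (limma adjusted p = 0.0208) and ACSL1 by 0.41 (limma adjusted p = 0.00775), 2 members against 12.1% of genes. In limma 0 were called lower, against 5.85%. At an unadjusted p under 0.05, 4 members were lower, as were 1619 of the 12689 genes. Those 4 were SCD, at -0.20 (95% interval -0.39 to -0.01), FASN, ACACA and ACLY. With the block, FADS2 joined the higher members, making 3 (18.6% of genes), and SCD, FASN, ACACA and ACLY were called lower, making 4 (10% of genes). With 1 array left out, ACSL1 stayed called in 12 of 12 fits and ELOVL6 in 8 of 12 (highest limma adjusted p = 0.0982), failing without combination array 9 or 13 or solvent array 2 or 9. The arrays of the combination lay above solvent for 2 members (21.5% of genes) and below for 3 (16.9%).

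In the ASTX660 average effect, all 8 members had differences above 0 and 0 were called. Averaged over both settings, FADS2 differed by 0.30, SCD by 0.26, ELOVL6 by 0.17, ACSL1 by 0.13, ACACA by 0.11, FASN by 0.09, ACLY by 0.08 and ELOVL5 by 0.07. Of all tested genes 63.6% were above 0, and the members' median was 0.12 where that of all genes was 0.02. In limma, called genes were 0% in either direction for ASTX660 against solvent, for the combination against SGI-110 and for the average effect. At an unadjusted p under 0.05, the genes higher and lower numbered 526 and 368, 130 and 240, and 581 and 482 in these comparisons, and 4 of the 8 members, SCD, ACLY, FADS2 and ELOVL5, were higher in the average effect. ASTX660 array 2 stood apart from the others, as given above. The summed signal of 3 fibroblast markers lay between 7.63 and 7.84 in SGI-110+ASTX660 cells, against 7.91 to 8.13 in SGI-110 cells, and between 7.64 and 7.97 in ASTX660 cells, against 7.93 to 8.05 in solvent cells. It came mainly from COL1A1, COL3A1 being above the array median on 0 arrays, and its part in the result was not tested.

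The title numbers were taken to pair the arrays of these comparisons, where deviations from the group means correlated above 0.1 for every number. The labels do not say what the numbers stand for. The block is shared by all 4 groups, and the number 2 arrays of the combination and ASTX660 correlated at only 0.057. With the number as a block, FADS2 (limma adjusted p = 0.00387) and SCD (limma adjusted p = 0.00801) were called higher in the average effect, 2 members among the 22 genes called, or 0.173% of those tested. FADS2 stayed called with any 1 of the 12 arrays left out, and SCD in 10 of 12, failing without SGI-110 array 2 or solvent array 2 (highest adjusted p = 0.0923). Without ASTX660 array 2, limma adjusted p was 0.00166 for FADS2 and 0.0394 for SCD. The FADS2 result rests on its brightest probe set, at 0.30. Its other probe set, above the array median on 12 of 12 arrays, differed by 0.07 (SE 0.0883) in the fit without the block. It was not called there. In the combination against SGI-110, the block called SCD higher by 0.36 (limma adjusted p = 0.0299), among 0.0788% of genes, and lost it without any one of the 6 arrays of that comparison. There the 3 combination arrays lay above the 3 SGI-110 arrays for SCD and ELOVL5, as for 4.53% of all genes. Against solvent, ASTX660 alone separated 0 members, while 7.59% of genes lay above and 4.68% below.

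The pairs of same-numbered arrays show the spread behind these averages. FADS2 differed by 0.41, 0.32 and 0.27 between the combination and SGI-110 for numbers 2, 9 and 13, and by 0.22, 0.28 and 0.29 between ASTX660 and solvent. All 6 pairs were above 0, between 0.22 and 0.41. SCD differed by 0.37, 0.36 and 0.34 on top of SGI-110, but by 0.35, 0.22 and -0.06 on top of solvent, where pair 13 went the other way. FADS2, ELOVL5, ELOVL6 and ACSL1 were above 0 in 6 of 6 ASTX660 pairs, as were 6.3% of all genes. For SGI-110, SCD, FASN, ACACA, ACLY and ELOVL5 were below 0 in 6 of 6 pairs, as were 17.6% of genes, and ACSL1 was above 0 in all 6, as were 17.9%. The SGI-110 pairs include those of the combination with ASTX660, where the number 2 arrays correlated at only 0.057.

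**Figure D3:**
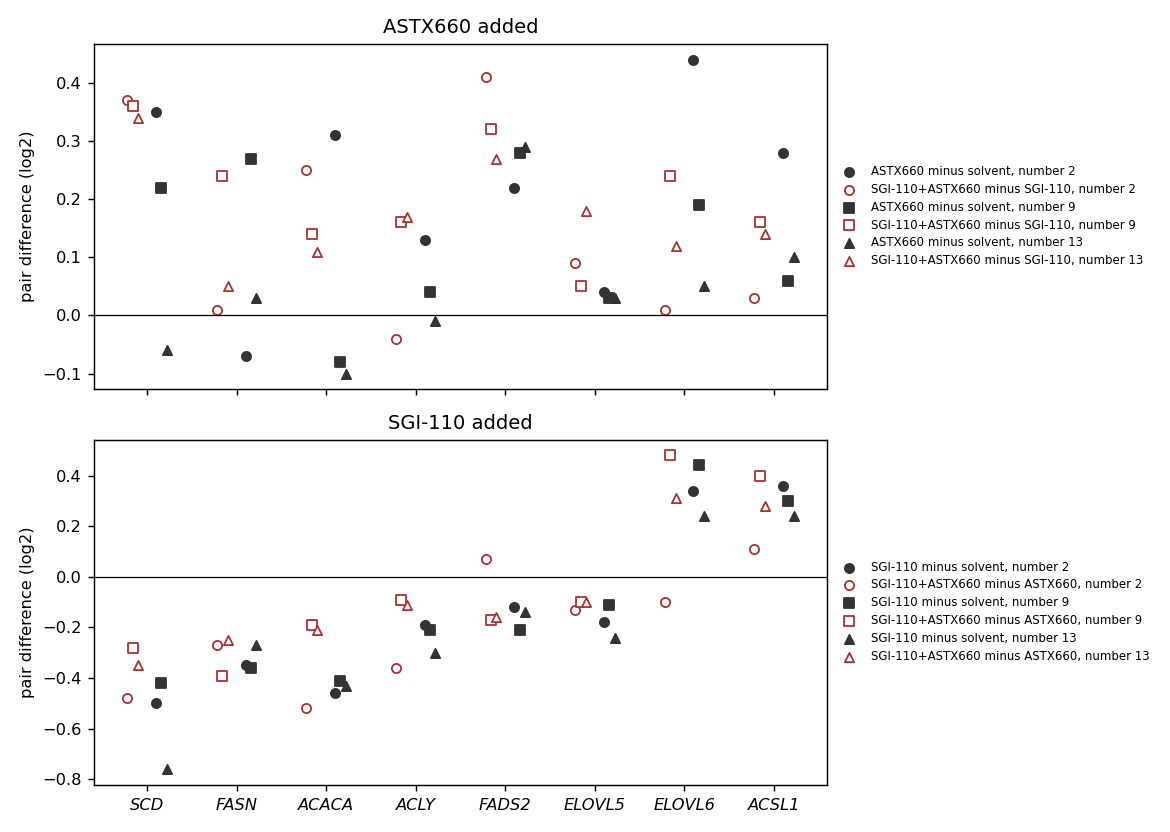
Differences in RMA log2 intensity between arrays of the same number, with ASTX660 added (top) and with SGI-110 added (bottom), for each gene. Open red symbols are pairs given the other agent as well, filled symbols are pairs without it and shapes are the numbers 2, 9 and 13; FADS2 stands above 0 in 6 of 6 ASTX660 pairs and SCD below 0 in 6 of 6 SGI-110 pairs.

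**Figure D4:**
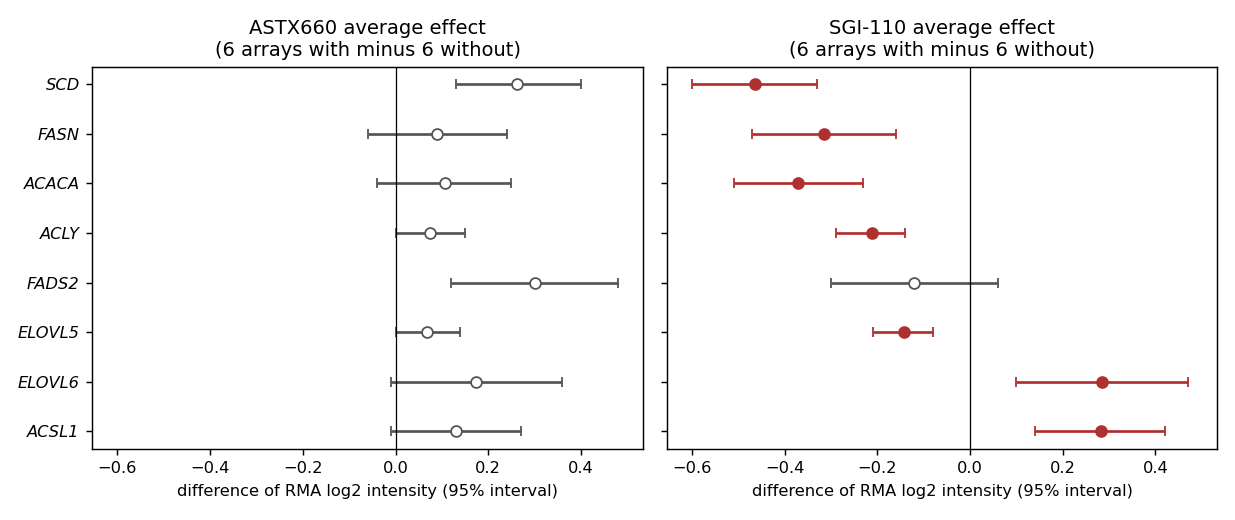
Average effects of ASTX660 (left) and SGI-110 (right) on the 8 genes, as log2 differences with 95% intervals from the fit without a block. Filled red points were called and open ones were not: 0 of 8 on the left, 7 of 8 on the right.

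Whether the 2 agents add up was tested as the interaction: what the combination differed by from solvent, less both single-agent differences from solvent. In limma it called 0 members and 0% of genes in either direction, with 72 genes above and 132 below at an unadjusted p under 0.05. For SCD it was 0.19 (95% interval -0.08 to 0.45), for ELOVL6 -0.11 (-0.48 to 0.27) and for FADS2 0.07 (-0.30 to 0.43). With the block, 0 members were called, and the interval for SCD was 0.01 to 0.37 (limma unadjusted p = 0.0424). These SCD values are those of its brightest probe set. Its other probe sets gave -0.01, 0.21 and 0.08 in the fit without the block, and none was called. With 3 arrays a group, departures from a sum anywhere within these intervals remain possible.

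Other genes of the pathway did not share one direction with SGI-110. Of 24 listed genes of fatty acid synthesis outside the members, 17 were tested, and 5 were called higher and 1 lower, with a median of -0.01. Across all tested genes, 15.8% were called higher and 14.1% lower. SCD5, the second human stearoyl-CoA desaturase, read 8.29, 8.17 and 8.34 in SGI-110+ASTX660 cells and 8.40, 8.24 and 8.34 in SGI-110 cells, against 8.00, 7.68 and 7.71 in ASTX660 cells and 7.62, 7.58 and 7.71 in solvent cells. All arrays with SGI-110 lay above all without it, by 0.58 on average (limma adjusted p = 1.14e-05), opposite in direction to SCD. FADS3, of the desaturase cluster, rose by 0.39, ELOVL3, an elongase of saturated chains, by 0.51, HACD4, a dehydratase of the elongation cycle, by 0.33, and SLC25A1, the mitochondrial citrate carrier, by 0.17. ME1, the malic enzyme that yields NADPH, was the gene called lower, by 0.32, and is named after its value was seen.

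Sterol synthesis, the other branch fed by acetyl-CoA and SREBP, was counted for comparison. Of 17 tested genes of sterol synthesis and uptake, 7 were called lower and 1 higher with SGI-110, against 14.1% and 15.8% of all tested genes. TM7SF2 rose by 0.26, and HMGCS1 fell by 0.50, LSS by 0.32, MSMO1 by 0.29 and IDI1 by 0.22. In the ASTX660 average effect 0 of the 17 were called without the block and 13 of 17 with it, higher by up to 0.39 for LSS, and those 13 were 59.1% of the 22 genes called and 76.5% of the list. The list's median was -0.10 for SGI-110 and 0.26 for ASTX660. The smallest adjusted p without the block was 0.0767, shared by ACAT2, IDI1, LSS, EBP and SQLE. TM7SF2 and SQLE are named after their values were seen. Of 9 tested SREBP regulators, INSIG1 and MBTPS2 were called lower and SPRING1, which helps SREBP processing, higher with SGI-110, where 14.1% of all tested genes were called lower and 15.8% higher. INSIG1 read 10.70, 10.89 and 10.78 in SGI-110+ASTX660 cells, 10.42, 10.50 and 10.54 in SGI-110 cells, 10.88, 11.12 and 11.06 in ASTX660 cells, and 10.75, 10.81 and 11.00 in solvent cells, an SGI-110 average effect of -0.30. With the block, INSIG1 was also called higher in the ASTX660 average effect, by 0.24 (limma adjusted p = 0.0034). SREBF2, which encodes the sterol-responsive SREBP, differed by -0.03 with SGI-110 and by 0.10 with ASTX660, and was called in neither.

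Of 4 tested LXR genes, ABCA1, the cholesterol exporter, rose by 0.83 and LPCAT3, which puts polyunsaturated chains into phospholipids, by 0.24 with SGI-110. The others, NR1H3 and MYLIP, did not pass the test. In each setting of SGI-110 tested alone, 0 of the 4 were called without the block and 2 with it. For SGI-110 against solvent, the block called 14.9% of all genes higher and 10.4% lower. The share with the block was not counted for the combination against ASTX660. The arrays numbered 13 were the highest for ABCA1 in every group. Solvent array 13, at 7.31, lay above arrays 2 and 9 of both groups with SGI-110. Of 15 tested genes of fatty acid oxidation, 6 were called higher and 1 lower in the SGI-110 average effect. Across all tested genes, 15.8% were called higher and 14.1% lower there. SLC25A20, the carnitine carrier, and CPT2 were higher by 0.22 each, ACADVL higher by 0.16 and ETFA lower by 0.10. Of 11 tested glycerolipid and droplet genes 4 were higher and 1 lower. LPIN2 stood at 0.27, DGAT2 at 0.26, PLIN3 at 0.21 and CDS2 at 0.16, and AGPAT5, named after its value was seen, at -0.09. Among 5 tested AMPK subunits, the kinase that phosphorylates ACACA, PRKAB1 rose by 0.33 and PRKAB2 by 0.23. Of these 4 lists 0 genes were called in the ASTX660 average effect by limma, with or without the block.

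**Figure D5:**
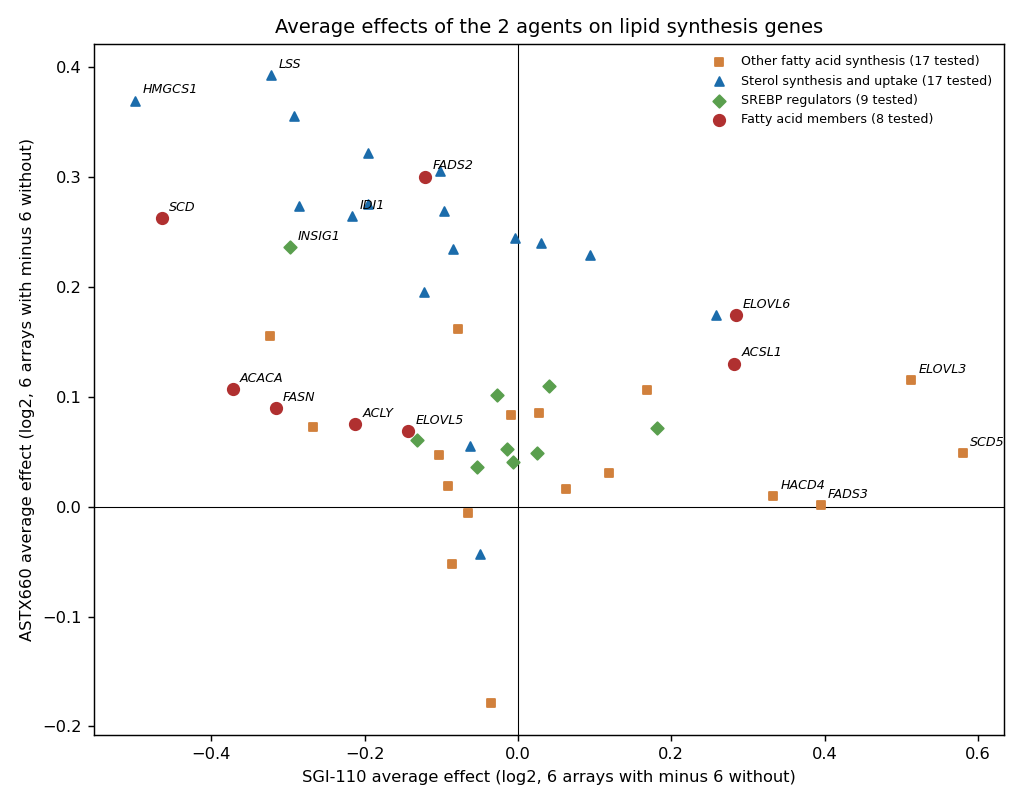
SGI-110 average effect (horizontal axis) against ASTX660 average effect (vertical axis), in log2, for the 8 members and the tested genes of 3 related lists. Both effects use the same 12 arrays; SCD, INSIG1, HMGCS1 and LSS lie left of 0 and above it, and SCD5, FADS3 and ELOVL3 lie to the right.

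Likeness between genes was described by Pearson r over the 12 arrays, which share their treatments and title numbers. SCD ran with ACACA (r = 0.918), ACLY (0.855) and FASN (0.831), and ELOVL6 with ACSL1 (0.693), while FASN and ACSL1 ran opposite (-0.745). The genes most like SCD were MMAB (0.961), INSIG1 (0.956) and POLR3B (0.946), and POLR3B was also the most like ACACA (0.982). FADS2 was most like CDK5 (0.925), ELOVL6 most like MIDN (0.979) and ACSL1 most like JKAMP (0.969).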

How the data were processed

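ML-2 cells were measured on 12 arrays, 4 groups of 3. Per the labels, cRNA came from 100 ng of total RNA and was labelled with biotin. The authors deposited RMA values on a log2 scale, and the submitters' processing notes list affy with no version. The labels do not say whether RMA was run once over all arrays. The table held 54675 probe sets, values between 2.078 and 14.38, and array medians between 4.688 and 4.774. No transformation was added.

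Of the probe sets, 42898 were in the platform annotation, 1801 of them with several genes, and 11777 were unlisted; 41091 with 1 symbol were used, 41037 of which matched RefSeq (GRCh38.p14). The brightest probe set by its mean across arrays stood for each gene, which was tested if above the array median on at least 3 arrays. A limma 3.58.1 model (R 4.3.3) gave every group a mean over the 12 arrays and used trended variances. The p-values were adjusted by Benjamini-Hochberg across 12689 genes per comparison, and the model was tested on simulated data. The median standard error was 0.085 for a pair of groups and 0.0601 for an average effect; the number of arrays limits the precision. Figures used matplotlib 3.10.9 in Python 3.11.15.

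The members, related lists and tests were chosen with earlier results of these data known. Named genes were all members, up to 4 genes of each related list with the smallest p in each average effect, and the 3 genes most like each member; others are said to be named after their values were seen.

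Title numbers were read as experiment numbers. Deviations from group means correlated between same-numbered arrays (numbers 2, 9 and 13) at 0.321, 0.471 and 0.55 for ASTX660 with solvent, 0.208, 0.484 and 0.544 for the combination with SGI-110, 0.377, 0.367 and 0.572 for SGI-110 with solvent, 0.15, 0.159 and 0.541 for the combination with solvent, and 0.057, 0.158 and 0.539 for the combination with ASTX660, where number 2 fell short of 0.1. Alternatives were the block, median centring, quantile normalization, no filter, the median over probe sets, no trend, robust variances, array weights and leaving out each array, and, chosen after seeing the data, the block with each array left out.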

Additional observations from a re-analysis of the deposited data

How the results depend on the processing

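Of 1280 member values under the planned settings, 1189 kept direction and side of the threshold, 48 lost the call, 27 gained one, and 16 changed sign, called neither as reported nor under the alternative; 0 called values changed sign. With the replicate block, members called came to 2 for the ASTX660 average effect (0.173% of genes) and 1 for the combination against SGI-110 (0.0788%). For the combination against solvent there were 7, 3 higher (18.6% of genes) and 4 lower (10%). For the combination against ASTX660 there were 7, 2 higher and 5 lower, and the share of all genes was not counted. In that comparison the number 2 arrays correlated at 0.057, short of 0.1. The block also raised the count of all genes called, from 3796 to 4896 in the SGI-110 average effect. The block also called FADS2 lower in the SGI-110 average effect (limma adjusted p = 0.0403). For SGI-110 against solvent the count was 3 with the median over probe sets and 3 without the trend, and for the combination against ASTX660 it was 1 without the trend; the cause was not tested. Leaving out 1 array gave 3 to 6 calls for SGI-110 against solvent, 0 to 4 for the combination against ASTX660, 1 to 3 for the combination against solvent, 6 to 7 for the SGI-110 average effect and 0 to 0 for the 4 remaining comparisons. With the block as well, the ranges were 0 to 2 for the combination against SGI-110 and 7 to 8 for SGI-110 against solvent. They were 4 to 7 for the combination against ASTX660 and 2 to 7 for the combination against solvent. For the ASTX660 average effect the range was 1 to 2, and for the SGI-110 average effect 7 to 8. With the block and all arrays, 14.9% of genes were called higher and 10.4% lower for SGI-110 against solvent. For the comparisons of single groups, the shares with an array left out were not counted. With 3 arrays a group, small differences of dim probe sets are poorly resolved, and RMA compresses ratios at low intensity.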
